A study of Mus musculus with 3 samples.

Results

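The 35 genes described here encode 25 integrin chains and 10 laminin chains, named one by one by symbol, and they are 35 of the 21938 protein-coding genes that were scored in the same way. The integrin genes comprise 17 alpha chains and 8 beta chains. The laminin genes comprise alpha, beta and gamma chains. They were named as a gene family, in a choice made with earlier results of these data known.

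Integrins are receptors of the cell surface, each made of 1 alpha and 1 beta chain, which hold cells to the extracellular matrix or to other cells and connect through talin and kindlin to the actin cytoskeleton. Laminins are secreted proteins of 1 alpha, 1 beta and 1 gamma chain that polymerise into the scaffold of basement membranes, where several integrins bind them. In the early mouse embryo the first basement membranes are built from laminins, and embryonic stem cells attach to laminin mainly through alpha6 beta1 integrin.

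The cells were F123, a male mouse embryonic stem cell (mESC) line from a cross of the S129/Jae and Cast strains, untreated, grown on feeder cells with LIF and passaged without feeders before harvest. Chromatin immunoprecipitation sequencing was made for Pol2-S7p, Pol2-S5p and H3K27me3, with 1 library each, so the values have no replicate error and no condition was compared. H3K27me3 is the trimethyl mark that Polycomb repressive complex places on histone H3. Pol2-S5p and Pol2-S7p are RNA polymerase II phosphorylated on serine 5 or serine 7 of its C-terminal repeats: the first marks polymerase at the beginning of genes and is also known at Polycomb-bound genes in mESCs, and the second accompanies productive transcription.

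The deposited lists held 22320 Pol2-S7p, 29222 Pol2-S5p and 17342 H3K27me3 enriched regions, with median widths of 2200, 2000 and 3400 bp. They carry positions, widths and a score without a stated unit. The lists give no read counts, so depth behind a region is unknown and a missing region means only that none was called. A promoter was scored as holding a mark when a region touched the 2 kb window centred on a transcription start site (TSS) of GENCODE on mm10. The start used was the one with the longest Pol2-S5p coverage in its window. A promoter that held both polymerase forms was Active where H3K27me3 was missing from it and PRC-Active (PRCa) where H3K27me3 was found too. One with H3K27me3 and Pol2-S5p alone was PRC-repressed (PRCr), and one that held no mark was Inactive. The marks were read over all cells and both parental chromosomes together, so 3 marks in a window on the same chromosome cannot be told apart from marks on different chromosomes or in different cells, and fewer cells with a mark cannot be told apart from less of it in each cell.

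The labelled cell type was compared with markers. All 8 embryonic stem cell genes examined, among them Pou5f1, Nanog, Sox2 and Zfp42, had Pol2-S5p and Pol2-S7p at the promoter. Of these 8, 2 (Sox2 and Klf4) also held H3K27me3 there and were PRCa. Of 8 fibroblast genes, as feeder cells would express, 2 had Pol2-S5p (Thy1, Twist1) and 1 had Pol2-S7p (Twist1), and Col3a1, Postn, Lum and Dcn held no region of any mark in window or body. None of 5 blood cell genes had either polymerase form at the promoter. Whether remaining feeder cells contributed to any region was not tested.

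The promoter sequences below show 1 gene for each state, with CpG dinucleotides in capitals, because CpG-rich starts are where Polycomb and polymerase are commonly found in mESCs. Each is the reference sequence of mm10 from the RefSeq promoter table, written 5′ to 3′ on the strand of the gene, with 250 bases before and 50 from the start on. Itga10 (Active) lies at chr3:96645334-96645633 on the plus strand. Lamb2 (PRCa) lies at chr9:108479612-108479911 on the plus strand. Itga3, at the internal start used (PRCr), lies at chr11:95069149-95069448 on the minus strand. Itga11 (H3K27me3 only) lies at chr9:62677605-62677904 and Itgam (Inactive) at chr7:128062390-128062689, both on the plus strand.
Itga10: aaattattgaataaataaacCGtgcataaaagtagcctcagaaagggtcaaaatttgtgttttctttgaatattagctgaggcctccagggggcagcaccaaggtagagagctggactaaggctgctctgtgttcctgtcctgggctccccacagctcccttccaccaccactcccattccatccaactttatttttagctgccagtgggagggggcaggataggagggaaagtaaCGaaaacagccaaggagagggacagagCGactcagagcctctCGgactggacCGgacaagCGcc
Lamb2: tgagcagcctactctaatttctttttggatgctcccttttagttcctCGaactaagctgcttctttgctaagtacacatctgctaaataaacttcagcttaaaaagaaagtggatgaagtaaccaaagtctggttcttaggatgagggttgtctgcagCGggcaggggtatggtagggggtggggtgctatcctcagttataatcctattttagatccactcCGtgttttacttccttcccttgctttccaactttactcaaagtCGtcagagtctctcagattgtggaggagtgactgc
Itga3 internal start: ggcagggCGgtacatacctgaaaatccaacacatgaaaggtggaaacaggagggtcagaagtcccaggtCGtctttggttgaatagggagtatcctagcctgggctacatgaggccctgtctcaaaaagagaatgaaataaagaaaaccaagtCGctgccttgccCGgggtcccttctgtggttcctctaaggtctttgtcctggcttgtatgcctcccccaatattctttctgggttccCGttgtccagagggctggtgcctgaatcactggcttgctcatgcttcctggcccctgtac
Itga11: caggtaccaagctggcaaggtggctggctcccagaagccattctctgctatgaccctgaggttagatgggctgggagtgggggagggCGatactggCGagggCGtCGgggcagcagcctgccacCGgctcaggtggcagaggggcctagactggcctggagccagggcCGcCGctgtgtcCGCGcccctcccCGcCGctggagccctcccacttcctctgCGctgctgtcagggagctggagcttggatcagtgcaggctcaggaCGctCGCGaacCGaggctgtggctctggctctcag
Itgam: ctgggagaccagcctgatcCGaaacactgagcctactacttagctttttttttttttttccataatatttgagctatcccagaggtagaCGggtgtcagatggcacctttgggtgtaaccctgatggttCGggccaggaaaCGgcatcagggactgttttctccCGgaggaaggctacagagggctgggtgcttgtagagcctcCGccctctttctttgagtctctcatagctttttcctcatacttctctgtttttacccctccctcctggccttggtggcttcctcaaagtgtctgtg

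A second pair shows the starts of 2 chains of the laminin receptor alpha3 beta1: Itgb1 (Active) at chr8:128685404-128685703 on the plus strand, and the 5′ start of Itga3 (PRCa) at chr11:95076665-95076964 on the minus strand.
Itgb1: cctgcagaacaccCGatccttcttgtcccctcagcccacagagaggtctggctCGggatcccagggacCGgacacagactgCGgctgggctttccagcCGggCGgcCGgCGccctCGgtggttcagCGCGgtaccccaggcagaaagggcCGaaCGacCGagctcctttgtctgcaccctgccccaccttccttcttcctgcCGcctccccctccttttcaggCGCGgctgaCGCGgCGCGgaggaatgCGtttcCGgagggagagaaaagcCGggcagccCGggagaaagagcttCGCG
Itga3 5′ start: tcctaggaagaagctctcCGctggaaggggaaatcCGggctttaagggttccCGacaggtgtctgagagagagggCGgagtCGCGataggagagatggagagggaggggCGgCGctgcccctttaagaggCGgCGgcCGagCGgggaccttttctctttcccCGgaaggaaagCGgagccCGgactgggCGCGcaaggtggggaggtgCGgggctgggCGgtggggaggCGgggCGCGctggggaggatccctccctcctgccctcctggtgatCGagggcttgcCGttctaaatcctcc

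The Itgb1 and 5′ Itga3 sequences held 27 and 24 CpG, whereas the internal Itga3 sequence held 5, so the same gene offered a CpG-rich and a CpG-poor start in different promoter states. Lamb2, with 4 CpG, was PRCa, and Itgam, with 6, was Inactive: the count of CpG alone did not order these promoters by state.

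H3K27me3 was present at the promoter of 23 of 35 genes, or 65.7%, against 37.6% of all protein-coding genes. Without H3K27me3 regions over 10 kb it stood at 12 genes (34.3%), against 15.7% of all genes, and with regions above the median score alone at 17 (48.6%), against 24.1%. Pol2-S5p was present at 26 genes (74.3%), against 69.9% of all genes, and Pol2-S7p at 17 genes (48.6%), against 60.4%. The genes therefore carried H3K27me3 more often than the background, Pol2-S5p about as often, and Pol2-S7p less often; these shares are a description of the list and were not tested.

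By state, 8 of the 35 genes (22.9%) were Active, against 36.1% of all protein-coding genes. PRCa promoters numbered 9 (25.7%), against 23.7%, a share near the background. PRCr promoters numbered 9 as well (25.7%), against 7.69%, and 5 genes (14.3%) held H3K27me3 only, against 6.0%. Inactive promoters numbered 4 (11.4%), against 23.5%, and no member held Pol2-S5p only, the state of 2.44% of all genes. Of the 9 PRCr genes 8 were integrins, as were all 4 Inactive genes at the starts used. Pol2-S7p stood at 7 of 10 laminin and 10 of 25 integrin promoters, and at the first coding start, the most upstream start of a protein-coding transcript, at 5 of 10 laminin and 10 of 25 integrin promoters (42.9% of the 35, against 59.1% of all genes); the difference between the families was not tested.

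In the Active promoters, both polymerase forms filled the 2000 bp window at every gene but Itgb1, where Pol2-S5p covered 1200 bp and Pol2-S7p 1000 bp. The starts used were chosen for long polymerase coverage, so filled windows partly follow from that choice. At the first coding start, each form covered 1340 bp at Itga6, and Pol2-S7p covered 1037 bp at Itga5. In the PRCa promoters, H3K27me3 covered between 857 bp (Lamb2) and the full window, Pol2-S5p at least 1200 bp (Itga9 and Itgav) and Pol2-S7p at least 600 bp (Itga2b). In the PRCr promoters, H3K27me3 covered between 1118 bp (Itgal) and the full window and Pol2-S5p between 718 bp (Itgal) and the full window, which it filled at Itga3 and Lamc3. Of the 5 promoters with H3K27me3 only, Itga11 and Itgb2 were filled, and Itga1, Lama4 and Lama2 held 1236, 1115 and 800 bp.

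**Figure D1:**
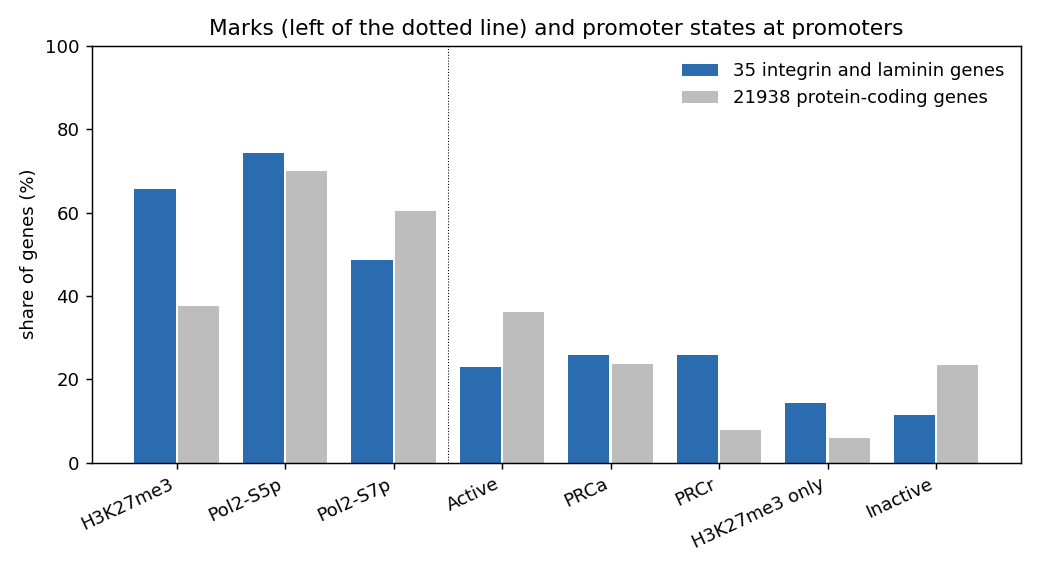
Share of genes (%) with each mark at the promoter (left of the dotted line) and in each promoter state (right of it), for the 35 integrin and laminin genes (blue) and all 21938 protein-coding genes (grey). H3K27me3 stood at 65.7% of the integrin and laminin promoters against 37.6% of all, and the PRCr state at 25.7% against 7.69%.

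Among the beta chains, Itgb1 is the common partner of most alpha chains and its loss is lethal soon after implantation in mice. Itgb1 (chr8:128685654-128733200) was Active, with a Pol2-S5p region of 1200 bp and a Pol2-S7p region of 1000 bp on the start and no H3K27me3 in its window or body. Both regions were narrow and high in score, at percentile 93.4 of the Pol2-S5p list and 96.0 of the Pol2-S7p list, and they covered 1.57% of the gene each. Within the gene Itgb1 was thus marked only at its start, unlike the other Active genes, in which Pol2-S5p covered 39.3% or more of the record.

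Itgb5 (chr16:33829665-33949338), which pairs with Itgav to bind vitronectin, lay in a Pol2-S5p region of 177800 bp that covered all of the gene, and Pol2-S7p covered 54.2%. The Pol2-S5p region also held the starts of Muc13 and Umps. The Pol2-S5p and Pol2-S7p regions at the used start stood at percentiles 23.1 and 16.0 of their lists. The used start of Itgb5 was internal, 62276 bp from the first coding start. The first coding start itself also held an H3K27me3 region of 9000 bp and was PRCa. Itgb7 (chr15:102215995-102231944), a chain of lymphocyte homing receptors, was Active in Pol2-S5p and Pol2-S7p regions of 34400 and 54800 bp that extended mostly upstream, over the start of Rarg. The regions ran 1344 and 1144 bp into the gene from its start, and further regions brought body coverage to 68.7% by Pol2-S5p and 63.6% by Pol2-S7p.

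Itgb4 (chr11:115974709-116008412), the beta chain of hemidesmosomes, was PRCa. H3K27me3 covered its whole body in a region of 41200 bp, with Pol2-S5p over 79.8% and Pol2-S7p over 17.5%. The Pol2-S7p region at the start, of 92800 bp, lay mostly upstream and held the starts of Recql5, Sap30bp, Smim5 and Smim6. It reached 92109 bp upstream and only 690 bp into Itgb4. The Pol2-S5p region there reached 33109 bp upstream and 6890 bp into the gene. Itgb3, the beta chain of the platelet fibrinogen receptor, and Itgb8, which with Itgav activates latent TGF-beta, were PRCr in a compact form. At Itgb3 (chr11:104608000-104670476) an H3K27me3 region of 3800 bp, at percentile 93.2 of its list, surrounded a Pol2-S5p region of 1800 bp, and at Itgb8 (chr12:119158022-119238802) the widths were 2800 and 1800 bp. Neither gene had any Pol2-S7p in its body.

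Itgb2 and Itgb6 lacked both polymerase forms. Itgb2 (chr10:77530252-77565708), the beta chain of the leukocyte integrins, lay wholly within an H3K27me3 region of 50400 bp with no polymerase region anywhere in the gene. Itgb6 (chr2:60598292-60722643), an epithelial partner of Itgav, was Inactive, with H3K27me3 over 5.79% of its body and none at the start used or at the first coding start, 48932 bp away.

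The 4 collagen-binding alpha chains were in 3 states. Itga10 (chr3:96645584-96664519), a chain of cartilage, was Active by its window, but its body was covered 100% by Pol2-S5p and by Pol2-S7p and 82.0% by H3K27me3. The polymerase regions, of 109000 and 208600 bp, also held the starts of 8 and 9 other protein-coding genes, among them Rbm8a and Polr3c, so Itga10 shared them with its neighbours. Itga2 (chr13:114833081-114932100), the platelet collagen receptor, was PRCr with H3K27me3 over 3000 bp and Pol2-S5p over 1200 bp at its start. That Pol2-S5p region stood at percentile 12.3 of its list. Itga1 and Itga11, collagen receptors of mesenchymal cells, held H3K27me3 only, in regions of 13000 and 24200 bp. The Itga1 region also held the starts of Pelo and Gm49395, which lie within the Itga1 record. Itga1 and Itga11 had some Pol2-S7p further in the body (3.90% and 17.5%). Whether that in Itga1 belongs to Pelo or Gm49395 was not tested.

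Of the 3 laminin-binding alpha chains, Itga6 (chr2:71745616-71858416) was Active, with no H3K27me3 in the gene, Pol2-S5p over 67.6% and Pol2-S7p over 69.3% of its body. Its used start was 39822 bp inside the first coding start, which was Active too. The polymerase regions at the used start also held the start of Pdk1. Itga6 was the only laminin-binding alpha chain whose window lacked H3K27me3. Itga3 (chr11:95044474-95076801), a receptor of epithelial cells, lay in an H3K27me3 region of 178400 bp, the widest at any of the 35 promoters, that also held the starts of Col1a1, Hils1, Pdk2, Ppp1r9b, Samd14 and Sgca. Pol2-S5p covered 94.4% and Pol2-S7p 2.48% of the gene, and that Pol2-S7p lay in a region of 1200 bp at the CpG-rich 5′ start printed above. Itga3 was therefore PRCr at the internal start used and PRCa at the 5′ start. The Pol2-S5p region at both starts stood at percentile 19.8 of its list. Itga7 (chr10:128933818-128958282), the receptor of muscle fibres, was PRCr with H3K27me3 over 82.0% of its body. Its Pol2-S5p region of 35000 bp reached 34018 bp upstream, over Cd63, Rdh5 and Bloc1s1, and only 981 bp into the gene.

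The alpha chains that bind the RGD peptide motif all held Pol2-S5p, 3 of 4 with Pol2-S7p. Itga5 (chr15:103344286-103366763), the fibronectin receptor, was Active with both polymerase forms over 100% of its body and no H3K27me3. Its used start, of a retained-intron transcript, lay 15385 bp from the first coding start, and both starts were Active. The polymerase regions over Itga5 also held the start of Zfp385a. Itgav (chr2:83724397-83806916), which pairs with several beta chains, was PRCa with regions of 3400 bp (H3K27me3), 1200 bp (Pol2-S5p) and 2200 bp (Pol2-S7p) over its start. Its polymerase regions stood at percentiles 98.6 and 94.6 of their lists and its H3K27me3 region at percentile 30.2, so at Itgav strong polymerase regions and a low-scoring H3K27me3 region shared the start. Body coverage was 2.67% by H3K27me3, 0.973% by Pol2-S5p and 1.46% by Pol2-S7p. Like Itgb1, Itgav was marked at the start and hardly in the body.

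Itga8 (chr2:12106632-12301922), needed for kidney formation in mice, was PRCr with H3K27me3 over 3000 bp and Pol2-S5p over 1400 bp. Itga2b (chr11:102453297-102470122), the platelet alpha chain, was PRCa at a start of a non-coding transcript, where Pol2-S7p spanned 600 bp. At its first coding start, 2684 bp away, it was PRCr, and H3K27me3 covered 94.5% of the gene.

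Itga4 and Itga9 form a subfamily that binds fibronectin splice forms and VCAM1. Itga4 (chr2:79255426-79333123) was PRCr with 4400 bp of H3K27me3 and 1200 bp of Pol2-S5p. Itga9 (chr9:118606690-118901003) had an H3K27me3 region of 27600 bp that extended 18690 bp upstream. At its start lay Pol2-S5p and Pol2-S7p regions of 1200 and 1000 bp, which made it PRCa. Both genes were nearly free of polymerase in the body, with 1.25% (Itga4) and 0.309% (Itga9) covered by Pol2-S5p.

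The alpha chains of leukocytes lacked Pol2-S7p at all 4 promoters, and 3 of the 4 were Inactive. Itgax (chr7:128129547-128150657), the CD11c of dendritic cells, held no region of any mark in the gene. Itgam (chr7:128062640-128118491), the CD11b of myeloid cells, held only Pol2-S5p over 2.15% of its body. Itgae (chr11:73090583-73147446), the CD103 of mucosal T cells, was Inactive at its start, while its body, in which another protein-coding gene starts, was covered 55.2% by Pol2-S5p, 13.7% by Pol2-S7p and 37.6% by H3K27me3. Itgal (chr7:127296260-127335138), the alpha chain of LFA-1, was PRCr at an internal start 13258 bp from the first coding start. At the first coding start it was Inactive, which made all 4 leukocyte alpha chains Inactive by that start.

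**Figure D2:**
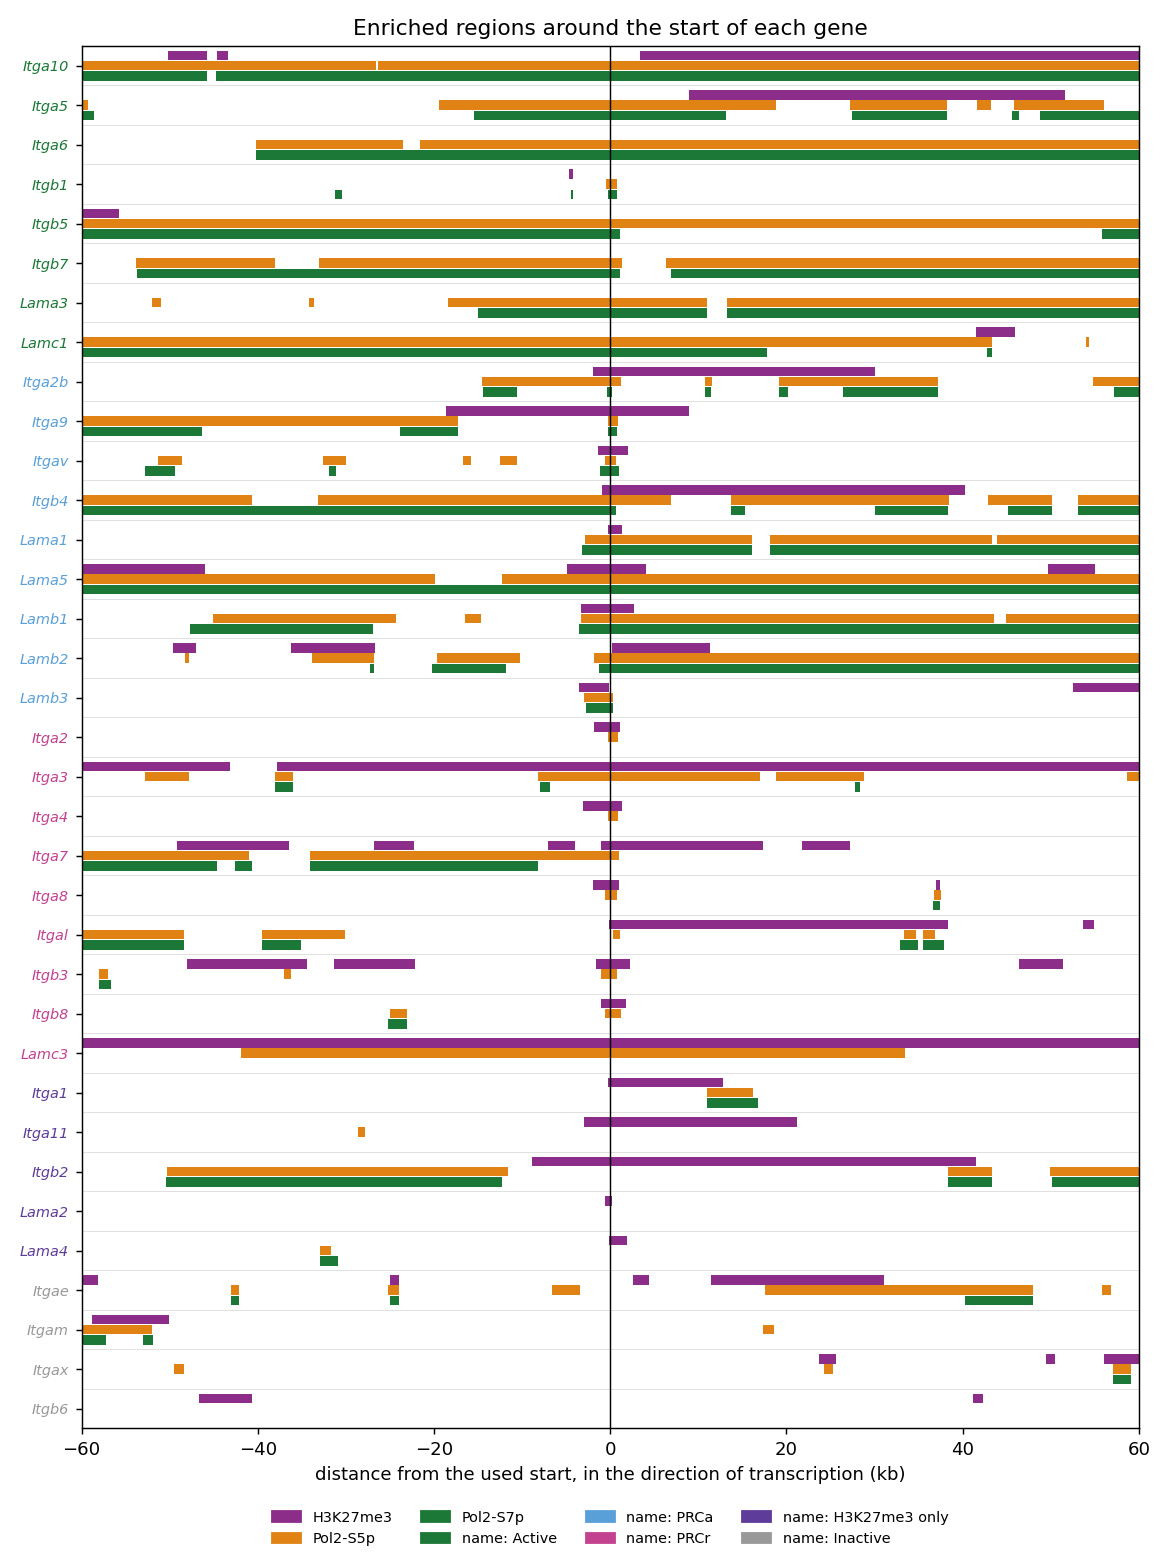
Enriched regions of H3K27me3 (purple), Pol2-S5p (orange) and Pol2-S7p (green) within 60 kb of the start used for each gene, which lies at 0 with transcription to the right; gene names are coloured and ordered by promoter state. Compact marks of a few kb at the start (Itgb1, Itgav, Itga2, Itga4, Itga8, Itgb3, Itgb8) contrast with regions that run over whole genes (Itga10, Lama5, Lamc1, Lamc3).

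Among the laminin alpha chains, the 2 made in the earliest embryonic basement membranes, Lama1 and Lama5, were PRCa and covered by polymerase almost from end to end. Lama1 (chr17:67697259-67822647) had an H3K27me3 region of 1600 bp, from 259 bp upstream to 1340 bp downstream of its start, at percentile 83.9 of its list. Pol2-S5p covered 97.0% and Pol2-S7p 97.6% of the gene, and H3K27me3 1.07%. Lama5 (chr2:180176373-180225859) had 9000 bp of H3K27me3 at its start, or 8.20% of the gene, and both polymerase forms over 100%. Its polymerase regions were shared with neighbours. The Pol2-S5p region, of 77000 bp, also held the start of Adrm1. The Pol2-S7p region, of 138200 bp, held those of Adrm1, Cables2, Rbbp8nl and Rps21. In Lama1 and Lama5 H3K27me3 was thus limited to the 5′ end of a record otherwise filled by polymerase regions.

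Lama2, the alpha chain of muscle, and Lama4, that of vessels, held H3K27me3 only, in regions of 800 bp (Lama2, chr10:26980036-27619758) and 2000 bp (Lama4, chr10:38965515-39110188). The Lama2 region was the narrowest of H3K27me3 at the 35 promoters, in the longest gene, of 639723 bp. Pol2-S5p covered 0.125% of Lama2 and none of Lama4. Lama3, of epidermal basement membrane, was Active at an internal start 170380 bp from the first coding start, within Pol2-S5p and Pol2-S7p regions of 29400 and 26000 bp. Those regions stood at percentiles 20.2 and 24.1 of their lists. At the first coding start Lama3 held H3K27me3 only, in a region of 2600 bp at percentile 90.8. By that start 3 of the 5 alpha chains (Lama2, Lama3 and Lama4) thus held H3K27me3 only.

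All 3 laminin beta chains were PRCa, though in different forms. Lamb1 (chr12:31265234-31329644), the widespread beta chain, had 6000 bp of H3K27me3 at its start (4.29% of the gene), with Pol2-S5p over 95.6% and Pol2-S7p over 100%. Lamb2 (chr9:108479736-108490530), of the synapse and the glomerulus, was covered 97.6% by H3K27me3 and 100% by each polymerase form. Its polymerase regions, of 91000 and 183800 bp, held 5 and 9 other starts, among them Qars and Usp19, and its H3K27me3 region began just downstream of its start, which it did not include. Lamb3 (chr1:193207699-193343878), of epidermal laminin, was PRCa only at a start of a non-coding transcript whose window overlapped that of G0s2. At its first coding start, 65613 bp away, Lamb3 was Inactive.

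Lamc1 (chr1:153218922-153332786), the gamma chain of most laminins, was covered 100% by Pol2-S5p and by Pol2-S7p in regions of 148400 and 122200 bp that held no start of another protein-coding gene. Its used start, 103642 bp from the first coding start, was Active. The first coding start held an H3K27me3 region of 1600 bp, from 813 bp upstream to 786 bp downstream, and was PRCa. By position Lamc1 thus had the same form as Lama1 at its 5′ end. Its H3K27me3 region scored lower, at percentile 40.4 of the list against 83.9 at Lama1. Lamc3 (chr2:31887291-31946539), of the retina and cortex, was PRCr inside an H3K27me3 region of 167200 bp shared with Aif1l, Fibcd1, Nup214 and Qrfp. Pol2-S5p covered 56.6% of Lamc3 and Pol2-S7p none. The Pol2-S5p region at the start of Lamc3 stood at percentile 9.04 of its list.

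The form with H3K27me3 at the 5′ end and polymerase over the gene was counted in all genes, by limits set after the laminin values were seen: PRCa at the first coding start, under 10% of the body in H3K27me3 and at least 90% in each polymerase form. Lama1, Lama5, Lamb1 and Lamc1 met it, which is 4 of the 10 laminin genes and none of the 25 integrin genes, or 11.4% of the 35, against 1.70% of all protein-coding genes (374). Because the limits came from these genes, the contrast describes them and supports nothing further.

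Over whole genes, polymerase regions covered far more of the median laminin gene than of the median integrin gene. The median laminin gene was covered 76.1% by Pol2-S5p, 67.2% by Pol2-S7p and 3.49% by H3K27me3. The median integrin gene was covered 2.15% by Pol2-S5p, 1.46% by Pol2-S7p and 5.46% by H3K27me3. For all protein-coding genes the medians were 13.2%, 5.37% and 0%, and for those of at least 10 kb (14164 genes) 11.8%, 6.34% and 0.413%. Both families were spread widely about their medians. In the laminin genes the quartiles of Pol2-S7p coverage were 0.762% and 100%, and those of Pol2-S5p 11.6% and 99.2%. In the integrin genes they were 0% and 17.5% by Pol2-S7p, and 0.985% and 67.6% by Pol2-S5p. No laminin gene lay near the Pol2-S7p median: the closest were Lama3 at 36.8% and Lama1 at 97.6%.

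At least 50% of the gene was covered by H3K27me3 in 9 of the 35 genes (25.7%), against 20.7% of all genes, by Pol2-S5p in 14 (40.0%), against 39.0%, and by Pol2-S7p in 10 (28.6%), against 34.6%. Coverage of 50% or more by each of the 3 marks was found in Itga10 and Lamb2 (5.71%), against 7.74% of all genes. These shares lay within a few percentage points of the background. Both are among the shorter of the 35 genes (18936 and 10795 bp) and lie in regions shared with neighbours. The 35 genes had a median length of 64411 bp, against 17425 bp for all protein-coding genes, and a region of given width covers less of a long gene.

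**Figure D3:**
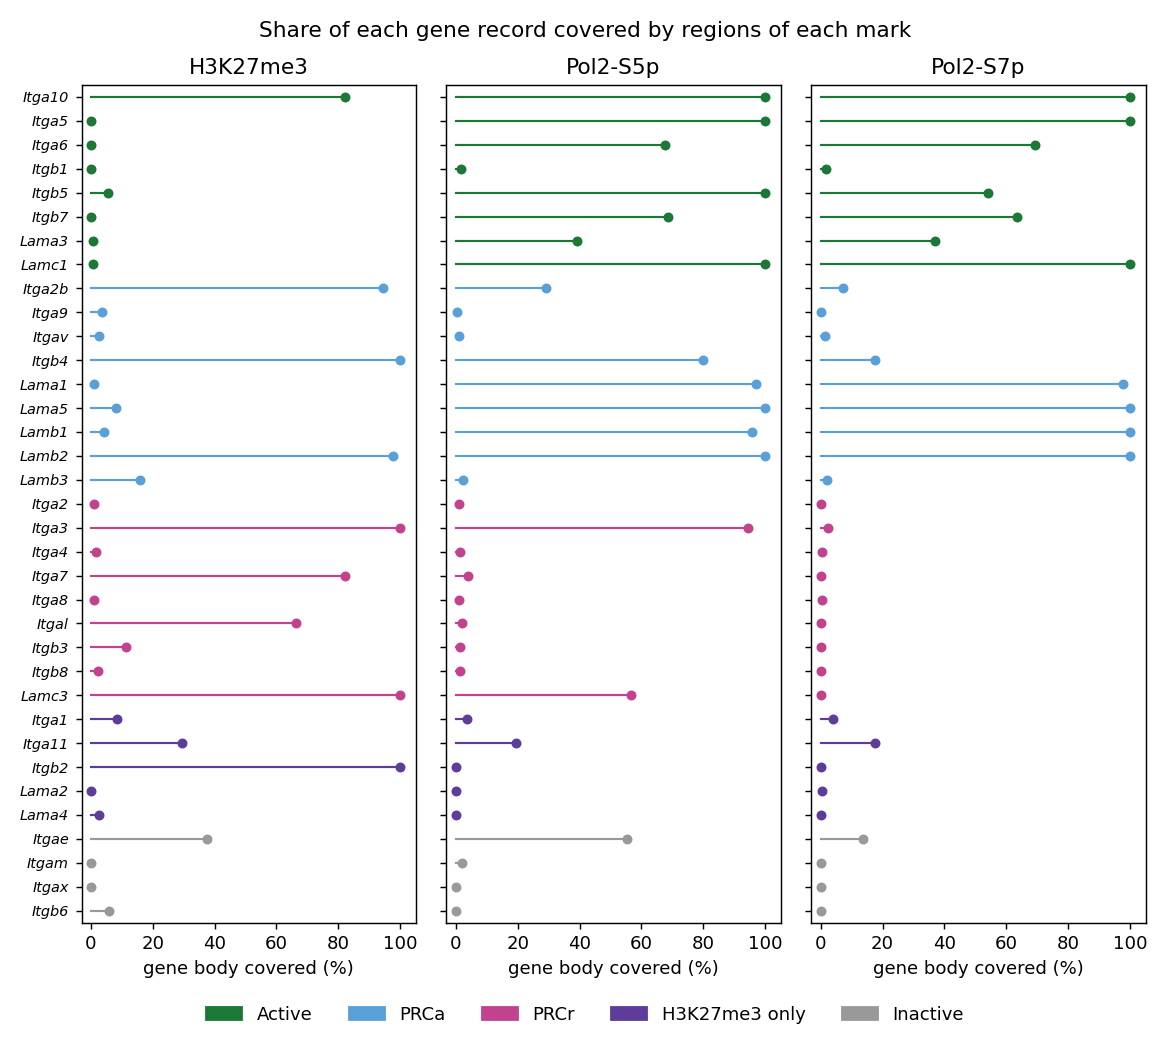
Share (%) of each gene record covered by H3K27me3, Pol2-S5p and Pol2-S7p regions, 1 row per gene, coloured by promoter state. Lama1, Lama5, Lamb1 and Lamc1 combine at least 95.6% polymerase coverage with at most 8.20% H3K27me3, whereas Itgb2 shows 100% H3K27me3 and no polymerase, and Itgb1 is empty but for 1.57% at its start.

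The regions at the marked promoters varied in width, from 600 bp (Pol2-S7p at Itga2b) to 208600 bp (Pol2-S7p at Itga10). The widest H3K27me3 region at the window exceeded 10 kb at 11 of 23 genes (47.8%), with a median of 9000 bp, against 58.3% and 16800 bp over all marked promoters. For Pol2-S7p the share over 10 kb was 70.6% (12 of 17), with a median of 54800 bp, against 61.8% and 20600 bp. For Pol2-S5p it was 61.5% (16 of 26) and 27300 bp, against 57.6% and 17600 bp.

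Of the 35 genes, 34 had several annotated starts, and in 22 these fell into more than 1 state. The same was not counted over all protein-coding genes, so neither count can be called particular to these genes. The rule of the longest Pol2-S5p coverage took a start of a transcript not annotated as protein-coding in 5 genes. When the first coding start was scored instead, a choice made after seeing the data, 7 genes changed state. Itgb5, Lamc1 and Itga3 became PRCa, Itga2b became PRCr, Lama3 held H3K27me3 only, and Itgal and Lamb3 became Inactive. The counts were then 5 Active (14.3%), against 33.8% of all genes by the same rule, 10 PRCa (28.6%) against 24.6%, and 8 PRCr (22.9%) against 7.44%. H3K27me3 only stood at 6 (17.1%), against 7.18%, Inactive at 6 (17.1%), against 25.1%, and Pol2-S5p only at 0, against 1.19%. The 5 genes Active at the first coding start were all integrins: Itga5, Itga6, Itga10, Itgb1 and Itgb7.

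**Figure D4:**
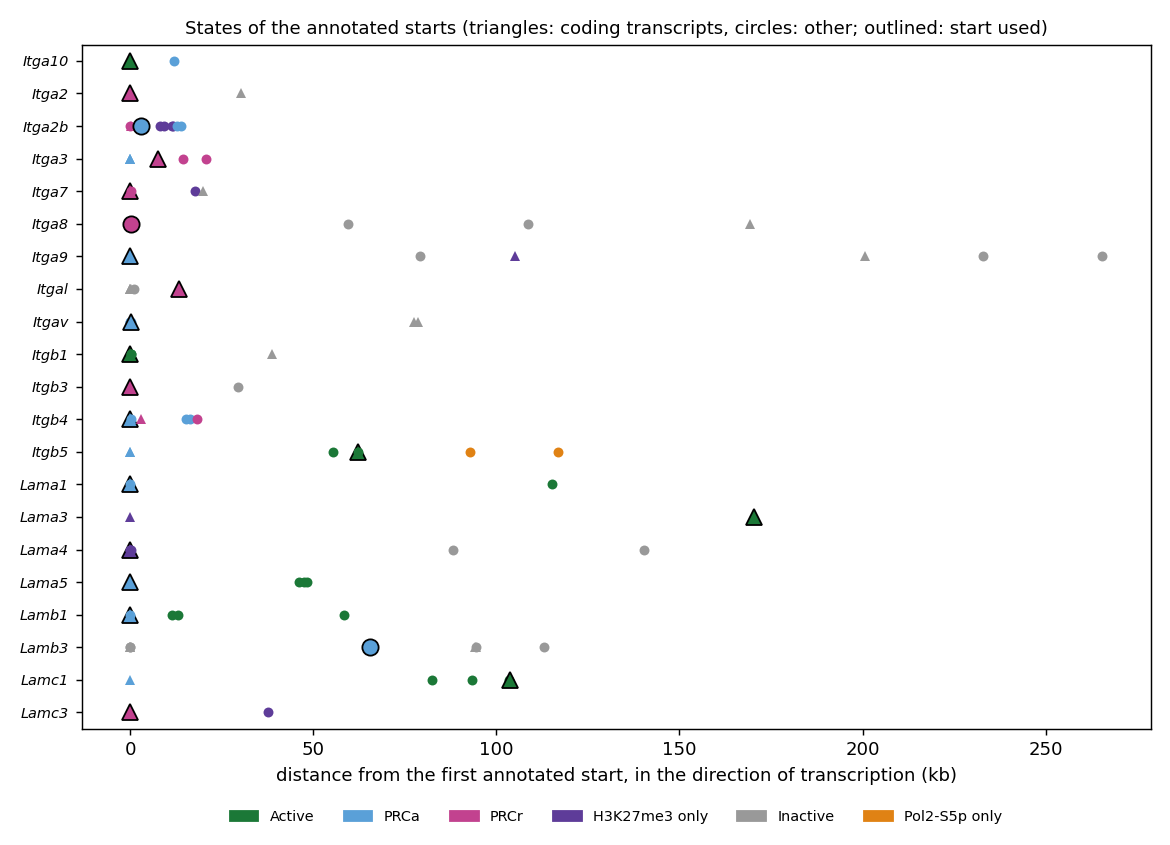
Promoter state (colour) of each annotated start by its distance in kb from the first start of the gene, for 21 of the 22 genes whose starts differ in state (Lama2, a much longer gene, is left out for scale); triangles are starts of coding transcripts, circles those of other transcripts, and the outlined symbol is the start used. In Itgb5, Lamc1 and Lama3 the start used lies 62276, 103642 and 170380 bp inside the gene and is Active, while the first coding start holds H3K27me3.

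Integrins and laminins work as complexes, so the states of chains that assemble were set side by side. Of 23 known integrin pairs, 3 had both chains in 1 state, all Active: Itga5 with Itgb1, Itga6 with Itgb1 and Itga10 with Itgb1. Both chains held Pol2-S5p in 16 pairs, Pol2-S7p in 7 and H3K27me3 in 4. The pairs are not independent, since Itgb1 is in 12 of the 23, including all 3 in 1 state. No number expected from the single genes was computed, so the pair counts describe this list only. The 12 pairs of Itgb1 combined an Active beta chain with alpha chains that were Active, PRCa, PRCr or H3K27me3 only. The 3 pairs of Itgb2 were without Pol2-S7p at either chain. At the first coding start, 8 pairs held Pol2-S7p at both chains and 5 had both chains in 1 state, now with Itgav and Itgb5 (both PRCa) and Itga2b and Itgb3 (both PRCr).

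Of 11 known laminin trimers, none had all 3 chains in 1 state at the starts used, with the beta chains PRCa, Lamc1 Active and Lamc3 PRCr. At the first coding start, the 4 trimers of Lama1 or Lama5 with Lamb1 or Lamb2 and Lamc1 were PRCa in every chain. All 11 listed trimers had H3K27me3 at every chain by that start, against 3 at the starts used. The list held no trimer with Lama3 or Lamb3, and Lamb3 was Inactive at its first coding start. The trimer count thus depends on which trimers were listed. It also follows from few genes, since Lamb1 or Lamb2 is in every listed trimer.

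**Figure D5:**
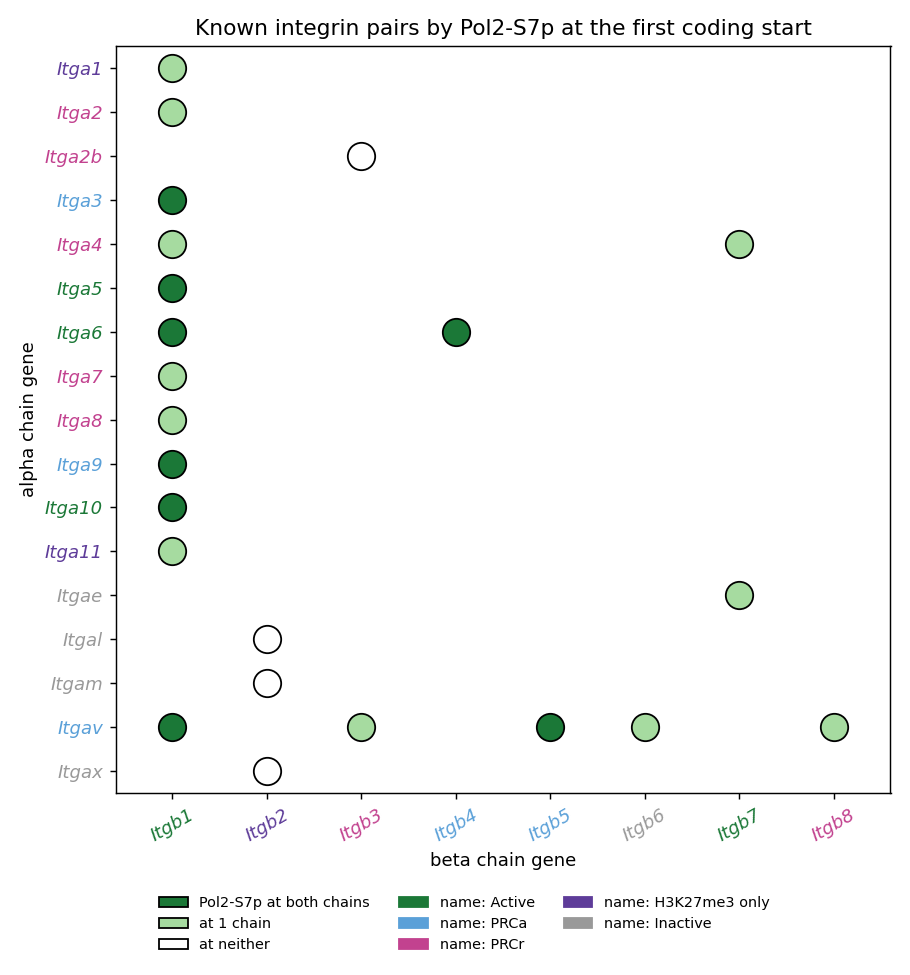
Known integrin pairs, alpha chains down and beta chains across; a dark circle has Pol2-S7p at the first coding start of both chains, a light one at 1 chain and an open one at neither, and names are coloured by the state at that start. The column of Itgb1 holds 12 pairs, and the 3 pairs of Itgb2 and that of Itga2b with Itgb3 are open.

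Of the 17 partners of integrins inside the cell, all had Pol2-S5p, 13 had Pol2-S7p and 6 had H3K27me3 at the promoter, where all genes stood at 69.9%, 60.4% and 37.6%, so H3K27me3 was near the background. Of these 17, 8 were Active, 5 PRCa and 1 PRCr, and 3 held Pol2-S5p only. Over all genes these states stood at 36.1%, 23.7%, 7.69% and 2.44%. Talin 1 (Tln1), kindlin-2 (Fermt2), paxillin (Pxn) and integrin-linked kinase (Ilk) were among the Active genes. Fermt1, Parva, Lims2, Zyx and Src were PRCa, and Parvg was PRCr. Tln2, Vcl and Ptk2 held Pol2-S5p only. Of the 14 matrix ligands and basement membrane partners, 12 had Pol2-S5p, 11 Pol2-S7p and 6 H3K27me3, the last again near the background. Among these the collagen IV chains Col4a1 and Col4a2, which form the second network of basement membranes, and perlecan (Hspg2) were PRCa like Lama1, Lama5 and Lamb1. H3K27me3 covered 12.8%, 8.50% and 9.45% of these 3 genes, and Pol2-S7p 100% of each. The starts of Col4a1 and Col4a2 lie within 2 kb of each other, so their windows overlap and are not separate cases. The other PRCa genes of the matrix list, Npnt and Thbs1, had other forms. Pol2-S7p covered only 2.18% of Npnt, and H3K27me3 covered 92.6% of Thbs1. Fibronectin (Fn1), the ligand of Itga5, was Active with Pol2-S5p over 93.8% and Pol2-S7p over 100% of its body. The median partner in the matrix list was covered 100% by Pol2-S7p, against 67.2% for the median laminin gene and 1.46% for the median integrin gene. These differences were not tested.

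The RefSeq table gave 26 promoters of 300 bases for 23 of the 35 genes, and the printed sequences come from these. They held a median of 11 CpG, against 14 in the 20150 promoters of all protein-coding genes, and a median ratio of observed to expected CpG of 0.44, against 0.59. By the state of the RefSeq start, medians were 22 CpG in the 6 PRCa promoters, 11.5 in 6 PRCr, 11 in 4 with H3K27me3 only, 9.5 in 4 Active and 5 in 6 Inactive. That start was not always the start used. The Itga9 entry, 105002 bp from the used start, counted as H3K27me3 only. Both Lamb3 entries, 28656 and 28905 bp from the used start, counted as Inactive and overlap. The 6 Inactive promoters came from 4 genes. Over all genes the medians were 22 (PRCa), 14 (PRCr), 6 (H3K27me3 only), 21 (Active) and 2 (Inactive). Of the 4 Active promoters, Itgb1 had 27 CpG, while Itga5, Itga10 and Itgb7, with 13, 6 and 5, were below the Active median of all genes. The GC box (GGGCGG on either strand) occurred in 12 of the 26 promoters (46.2%), against 47.8% of all promoters. The TATA box (TATAAA on either strand) occurred in none, against 12.1%.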

How the data were processed

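The authors mapped 75 bp single-end reads to an mm10 genome masked at strain variants, using Bowtie2 2.3.4.3, and called regions separately for each mark with BCP, a Bayesian change-point method, at default settings. The deposited width, an other kind of value in bp, was a multiple of 200 bp. A unit for the deposited score is not given in the sources used here, and scores were compared inside 1 list only. Gene records and starts of all transcripts came from GENCODE M21 (GRCm38, the same assembly as mm10), for 21938 protein-coding and 13374 long noncoding genes, these used only for neighbouring starts. Ties between starts in Pol2-S5p coverage were settled by Pol2-S7p coverage, next by transcript length and last by identifier. Promoter states were adapted from the study, which also required reads above a threshold and left out overlapping genes and those with close starts; here contact with a region sufficed and such genes were kept. Body coverage is the share of the gene record inside regions, counting each base once. All 35 members are named, in groups by role. Members, partner and marker lists were chosen with earlier results of these data known. With 1 library per mark no test was run and no p-value is given. Promoter sequences were taken from the RefSeq table for members with an entry within 50 bp of the start used, the first per state in body coverage by H3K27me3 (or, in states without it, by Pol2-S7p), with Itgb1 and the 5′ start of Itga3 added. Scripts (Python 3.11.15, NumPy 2.4.6, Matplotlib 3.10.9) were tested on simulated regions. Coordinates count from 1.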

Additional observations from a re-analysis of the deposited data

How the results depend on the processing

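The states were recomputed under 11 other settings, 2 of them chosen after seeing the data (coding transcripts only, and the first coding start). Of the 35 genes, 8 had the same state under every setting that scored them (Itgae, Itgax, Itgb1, Itgb3, Itgb6, Itgb8 and Lama4, and Itgam, which has a neighbouring start and was left out where such genes were), and 27 changed under at least 1. With regions at or below their list's median score removed, 20 genes changed (15 kept their state) and the counts were 4 Active, 4 PRCa, 5 PRCr, 8 with H3K27me3 only and 13 Inactive, with H3K27me3 at 17 promoters, Pol2-S5p at 14 and Pol2-S7p at 8; median body coverage was then 1.07% by H3K27me3, 0.410% by Pol2-S5p and 0% by Pol2-S7p. Without H3K27me3 regions over 10 kb, 11 genes changed: H3K27me3 stood at 12 promoters, with 5 PRCa, 5 PRCr, 2 with H3K27me3 only and 7 Inactive. Without polymerase regions over 10 kb, 16 genes changed and 19 did not: Pol2-S5p stood at 10 promoters and Pol2-S7p at 5, with 1 Active (Itgb1), 3 PRCa, 13 with H3K27me3 only and 11 Inactive. These 3 settings remove regions by construction. For them, only H3K27me3 at the promoter was also counted over all genes, at 24.1% with the score filter and 15.7% without wide H3K27me3 regions. The state counts have no share over all genes beside them, so whether the PRCr contrast held under these settings was not examined. The start of the longest transcript gave 5 Active genes, as did the first start of a protein-coding transcript, and reading any start gave 4 Active and 14 PRCa. Without the 6 genes with a neighbouring start, 3 of 29 held H3K27me3 only. With the body counted from 2 kb inside the 5′ end, median Pol2-S7p coverage was 0.528%. Windows of 1 kb and 4 kb changed 2 genes and 1 gene, and at least 50% of the window covered changed 5. No paired analysis was possible because each mark had 1 library, and no library could be left out for the same reason. The number of reads behind a region is not given, so weak or short enrichment could not be told apart from none.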
